A study of Mus musculus with 4 samples.

Results

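The genes of creatine synthesis, creatine uptake and creatine phosphorylation were followed in the mouse colonic epithelium. The group holds 7 of the 18194 genes that the array annotation names by a probe set with 1 symbol: the synthesis enzymes Gatm and Gamt, the transporter Slc6a8, the cytosolic creatine kinases Ckb and Ckm, and the mitochondrial creatine kinases Ckmt1 and Ckmt2. All 10 of their probe sets were taken. The genes belong together by pathway, but the pathway was picked from the measured differences of the same arrays, in which Gatm and Ckb had stood out. Their differences are therefore given as a description, with no test.

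Expression was measured on 4 arrays in 2 pairs, with 1 array per group, all from male mice. The sorted pair came from H2B-GFP mice, in which a tetracycline-responsive element drives a histone H2B-GFP fusion. Both of its groups had been labelled with doxycycline for 7 days and kept without it for 2 days. Flow cytometry then separated crypt epithelial cells by what was left of the label: GFPhigh cells had kept it and are the non-proliferating ones, GFPlow cells had diluted it and are the proliferating ones. The induction pair came from isolated crypts of mice with doxycycline-inducible β-catenin. Dox minus was untreated, and Dox plus had drunk water with doxycycline (2.0 mg/ml) for 5 days, so doxycycline itself and the induction cannot be told apart. What drives the transactivator in either line, and how old, how many and of which strain the mice were, was not given in the sources used here. Because each group is 1 array, no difference below has a replicate check.

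Creatine is made in 2 steps. GATM (arginine:glycine amidinotransferase) moves the amidino group of arginine onto glycine, which yields guanidinoacetate and ornithine, and GAMT (guanidinoacetate methyltransferase) methylates guanidinoacetate with S-adenosylmethionine. Cells also import creatine with sodium and chloride through SLC6A8. Creatine kinases pass phosphate reversibly between ATP and creatine. The mitochondrial isoenzymes sit between the membranes of the mitochondrion, beside the adenine nucleotide carrier, and the cytosolic ones work near sites of ATP use, so that phosphocreatine links ATP supply to demand. In the gut, creatine kinase has been described at the brush border of absorptive cells.

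The members fell into 3 kinds by level. Slc6a8 and Ckmt1 lay well above the floor on all 4 arrays, Gatm, Ckb and Ckmt2 crossed it, and Gamt and Ckm stayed under it. The floor is a log2 value of 5, below which the background model largely decides a GCRMA value. Lower values were raised to 5, and where that happened on 1 array of a pair the difference is a bound ("at least") on its size. A gene counted as measured in a pair when either array was at 5 or above. That held for 5 members in the sorted pair and 3 in the induction pair.

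**Figure D1:**
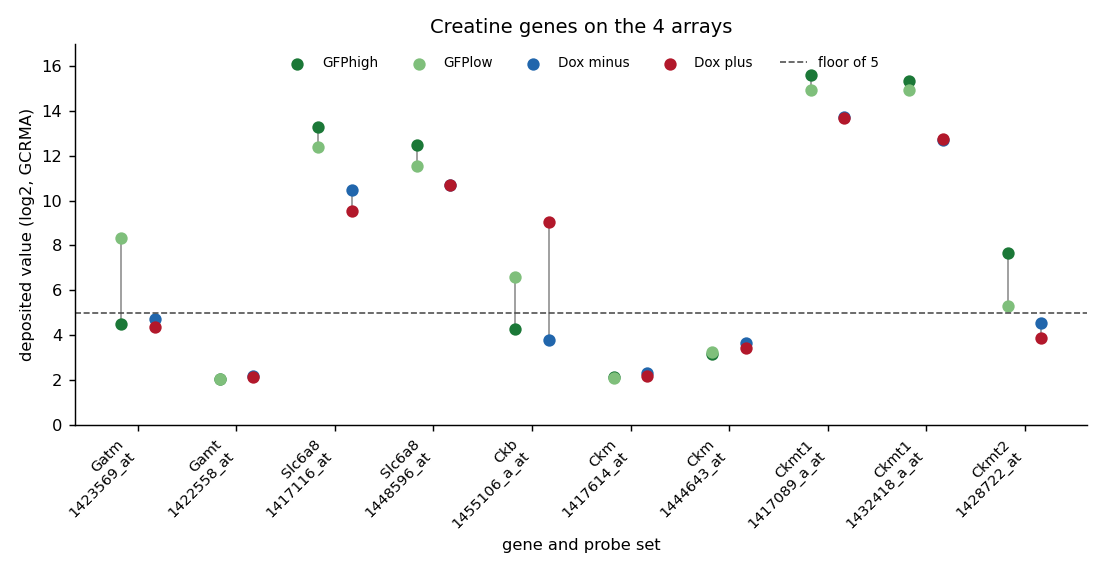
Deposited log2 values (vertical axis) of the 10 probe sets of the creatine genes (horizontal axis) on the 4 arrays; each point is 1 array, grey lines join the arrays of a pair, and the dashed line is the floor of 5. Ckb crosses the floor in both pairs, Gatm in the sorted pair only, and both probe sets of Slc6a8 and of Ckmt1 stay between 9.54 and 15.60.

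In the sorted pair Gatm and Ckb were higher in the proliferating cells, Ckmt2 was lower, and Slc6a8 and Ckmt1 were lower by less than 2-fold. After induction Ckb was far higher, while Ckmt1 was close to 0 difference and the probe sets of Slc6a8 disagreed. Past 2-fold stood 2 of 5 measured members in favour of GFPlow and 1 of 5 in favour of GFPhigh. Over all 9381 genes measured in that pair, 8.81% passed 2-fold in favour of GFPlow and 4.30% in favour of GFPhigh. Of 3 members measured in the induction pair, 1 passed 2-fold in favour of Dox plus and 0 in favour of Dox minus, where 6.93% and 5.35% of 9537 genes did. Since these differences helped to choose the genes, nothing is read from the counts. The median difference over all measured genes was 0.04 in the sorted pair and 0.06 in the induction pair.

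Because Gatm, Ckb and Ckmt2 had the largest differences of the group, the stretch from 250 bases before to 50 bases after an annotated start of each is shown, from RefSeq on build GRCm38.p6 and 5′ to 3′ on the gene's strand. Ckb lies at chr12:111672289-111672588 on the minus strand, Gatm at chr2:122611228-122611527 on the minus strand and Ckmt2 at chr13:91876836-91877135 on the minus strand. Capitals mark every match, on either strand, to CTTTGA or CTTTGT (cores of TCF/LEF sites, the partners of β-catenin), ACGTG (the core of hypoxia-inducible factor sites), CCAAT and TATAAA.
Ckb: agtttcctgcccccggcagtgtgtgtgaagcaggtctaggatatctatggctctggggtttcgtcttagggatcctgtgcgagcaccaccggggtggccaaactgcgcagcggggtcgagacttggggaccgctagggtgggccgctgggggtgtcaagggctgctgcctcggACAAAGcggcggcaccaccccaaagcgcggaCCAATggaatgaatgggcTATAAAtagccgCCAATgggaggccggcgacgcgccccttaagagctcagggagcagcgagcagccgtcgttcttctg
Gatm: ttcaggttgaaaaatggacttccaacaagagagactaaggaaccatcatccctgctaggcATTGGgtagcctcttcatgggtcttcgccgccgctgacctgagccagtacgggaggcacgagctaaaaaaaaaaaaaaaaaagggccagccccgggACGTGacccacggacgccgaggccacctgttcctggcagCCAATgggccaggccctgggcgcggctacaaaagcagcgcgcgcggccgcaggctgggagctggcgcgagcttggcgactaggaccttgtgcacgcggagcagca
Ckmt2: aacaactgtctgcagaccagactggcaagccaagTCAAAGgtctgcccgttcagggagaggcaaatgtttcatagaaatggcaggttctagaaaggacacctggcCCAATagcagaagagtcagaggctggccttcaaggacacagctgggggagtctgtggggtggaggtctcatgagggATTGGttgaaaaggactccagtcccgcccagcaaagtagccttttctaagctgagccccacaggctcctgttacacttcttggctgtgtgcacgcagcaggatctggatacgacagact

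The Ckb window holds CTTTGT on the opposite strand at bases 174 to 179, where it is printed as ACAAAG. It also holds TATAAA at bases 223 to 228 and CCAAT at bases 205 to 209 and 235 to 239. The Gatm window holds ACGTG at bases 157 to 161, CCAAT at bases 196 to 200 and its reverse complement at bases 61 to 65. The Ckmt2 window holds CTTTGA on the opposite strand at bases 35 to 40, CCAAT at bases 106 to 110 and its reverse complement at bases 182 to 186. No 2 of these matches overlap. Such letters are common: of 32851 windows in the table, 16.0% hold CTTTGA, 18.7% CTTTGT, 19.6% ACGTG, 37.4% CCAAT and 13.6% TATAAA on either strand. A TCF/LEF core thus occurs in the window of Ckb, which was higher in both pairs, and in that of Ckmt2, which was lower in GFPlow. The share of windows with either TCF/LEF core was not counted, so nothing is read from these matches. The motifs were chosen after the windows had been read, a match is no evidence of binding, and 6 of the 7 members had a window in the table.

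Gatm, the enzyme of the committed step of creatine synthesis, had 1 probe set (1423569_at). It read 4.48 in GFPhigh, 8.33 in GFPlow, 4.73 in Dox minus and 4.38 in Dox plus. GFPlow alone stood above the floor. The difference GFPlow minus GFPhigh was at least 3.33 (at least 10.0-fold), and 3.85 between the values as deposited. Both Dox arrays were under the floor, so no difference is given there. The unsorted Dox arrays and the sorted GFP arrays differ in genotype, sorting and possibly in processing, so the high GFPlow value against both Dox arrays cannot be assigned to any of these.

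Gamt, the enzyme of the second step, read between 2.04 and 2.19 on its only probe set over the 4 arrays (1422558_at). The enzymes of the 2 steps were therefore not measured together on any array. A value under the floor sets no level of Gamt, and it does not show that the transcript is missing.

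In bulk RNA a lower value for Gatm, or for any gene here, can come from fewer cells that express it or from less RNA per cell, and these cannot be told apart. Gatm is known in mammals as a gene of kidney and pancreas as well as of other tissues, so their markers were read on the same arrays. None of 5 kidney proximal tubule markers reached the floor on any array. Of 12 pancreatic acinar markers with a probe set, 2 reached it in GFPhigh, GFPlow and Dox minus and 1 in Dox plus. These were the elastase Cela1 and the colipase Clps. The log2 summed signal of that list was 13.88 in GFPhigh, 14.04 in GFPlow, 12.43 in Dox minus and 10.88 in Dox plus. Cela1 read 13.87 in GFPhigh, 14.03 in GFPlow, 12.17 in Dox minus and 10.81 in Dox plus. Clps read 5.34, 6.17, 9.69 and 4.95 in that order. Both were higher in GFPlow than in GFPhigh, by 0.16 and 0.83. Over the 4 arrays Cela1 was highest in GFPlow, as Gatm was, and Clps in Dox minus. Cela1, however, stood above the floor on all 4 arrays, and Gatm in GFPlow only. The other 10 markers of the list were under the floor on all 4 arrays. The summed signal is thus mostly that of Cela1, and it sets no level of pancreatic RNA. Markers of deep crypt secretory cells, goblet-related cells at the crypt base, were higher together with Gatm in the sorted pair. Of 6 such markers 5 reached the floor in GFPhigh and 6 in GFPlow, and their log2 summed signal was 15.64 and 17.10. On that list 5 of 6 were at least 2-fold higher in GFPlow, with a median of 1.86. It was not the only such list. Proliferation markers had 7 of 7 at least 2-fold higher in GFPlow, with a median of 2.13. Stem cell and Wnt target markers had 6 of 7, with a median of 1.45. The part of any of these lists in the Gatm difference was not tested.

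Slc6a8, the creatine transporter of the plasma membrane, was lower in GFPlow on both of its probe sets. Probe set 1417116_at read 13.27 in GFPhigh, 12.41 in GFPlow, 10.50 in Dox minus and 9.54 in Dox plus. Probe set 1448596_at read 12.49, 11.56, 10.71 and 10.70 on the same arrays. The GFPlow minus GFPhigh differences were -0.86 and -0.93 (1.82-fold and 1.90-fold lower in GFPlow). Between the Dox arrays the probe sets parted: -0.96 on the former and -0.01 on the latter. The direction of Slc6a8 after induction thus rests on 1 probe set, and its mean over both was -0.49. With quantile normalization or a loess correction the former crossed 2-fold, at -1.01 in each.

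Markers of absorptive colonocytes and of enteroendocrine cells were also lower in GFPlow. Of 10 colonocyte markers 9 were measured in the sorted pair, and all 9 had lower values in GFPlow, with a median of -0.95, and the log2 summed signal of the list was 17.34 in GFPhigh and 16.58 in GFPlow. The same sum was 16.77 for Dox minus and 16.59 for Dox plus. Of 8 measured enteroendocrine markers 4 were at least 2-fold lower in GFPlow, 0 were 2-fold higher, and the median was -0.96. After induction all 9 enteroendocrine markers read lower in the induced crypts by 2-fold or more, and the list median was -2.59. Their log2 summed signal was 13.43 in GFPhigh, 12.33 in GFPlow, 13.82 in Dox minus and 11.52 in Dox plus. The part of either cell type in the values of Slc6a8 and of the mitochondrial kinases was not tested.

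Ckb, the cytosolic kinase that is abundant in brain, showed the largest difference of the group, in the values as deposited and as a bound. Its 1 probe set (1455106_a_at) read 4.25 in GFPhigh, 6.59 in GFPlow, 3.78 in Dox minus and 9.03 in Dox plus. Within each pair 1 array was under the floor and the other above it, and the higher arrays were the proliferating cells and the induced crypts. The bounds were at least 1.59 (at least 3.02-fold) for GFPlow and at least 4.03 (at least 16.3-fold) for Dox plus. As deposited, the differences were 2.34 and 5.25. The GFP bound depends on the floor: with a floor of 6 it was 0.59 and no longer past 2-fold, whereas the Dox bound was still 3.03. The suffix of the probe set marks probes shared by transcript variants of 1 gene, so variants of Ckb are not separated.

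Ckb was 1 of 183 genes that were at least 2-fold higher in both pairs, or 2.03% of the 9023 genes measured in both. Of the 3 creatine genes measured in both pairs, it was the only one of these. The genes nearest to Ckb in the plane of the 2 differences, without a floor, were the secreted phospholipase Pla2g2a (2.20 in the sorted pair and 4.01 in the induction pair), the crypt stem cell receptor Lgr5 (2.11 and 3.84) and the phospholipase Pla2g12a (1.84 and 3.53). Their Euclidean distances from Ckb were 1.24, 1.42 and 1.79, and 0 of 9020 other genes lay within a distance of 1. These distances rest in part on values under the floor, among them the lower Ckb value of each pair. In an alternative chosen after seeing the data, with the floor applied, Ckb lay at 1.59 and 4.03 and 2 genes lay within 1 of it: Lgr5 (1.25 and 3.84, distance 0.39) and Adat2, a tRNA deaminase subunit (1.18 and 3.29, distance 0.84). Lgr5 was thus among the 3 nearest genes with and without the floor, and Pla2g2a and Pla2g12a were not among them with it. With the floor, however, both differences of Ckb, the sorted difference of Lgr5 and the induction difference of Adat2 are bounds. Those distances therefore lie between bounds and do not fix how near the genes are. In the same plane of differences, without a floor, the nearest genes to Slc6a8 were Tgm3, Ttc22 and Samd8, at distances of 0.02 to 0.06. Those nearest to Ckmt1 were Lrrc19, Dnal1 and Hmg20b, at 0.01 to 0.02. These lie in the crowded centre, with 1862 genes within 1 of Slc6a8 and 5224 within 1 of Ckmt1, so likeness there says little.

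**Figure D2:**
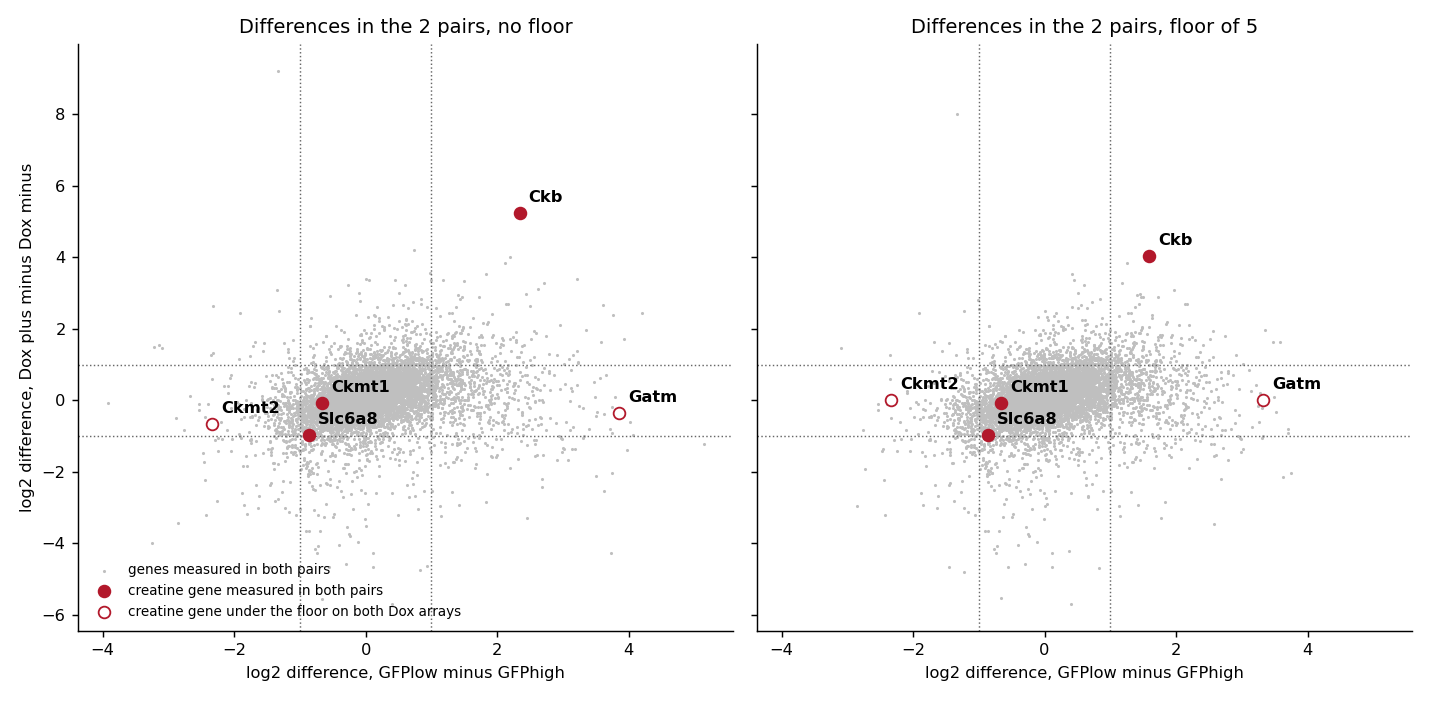
Log2 differences in the sorted pair (horizontal axes) and the induction pair (vertical axis), without a floor (left) and with the floor of 5 (right), for 9023 genes measured in both pairs (grey) and for the creatine genes (red; open circles were under the floor on both Dox arrays and are drawn at 0 on the right). Dotted lines mark 2-fold. Ckb lies at 2.34 and 5.25 on the left, a place set in part by values under the floor. On the right it lies at 1.59 and 4.03, which are bounds, with 2 genes within 1 of it. Slc6a8 and Ckmt1 lie inside the cloud in both panels.

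Since Ckb is also a gene of brain and muscle, the markers of these tissues were read beside it. None of 8 smooth muscle and none of 6 endothelial markers reached the floor on any array. Of 7 neuronal and glial markers only Sox10 did, at 5.21 in Dox minus and 5.33 in Dox plus. Of 12 striated muscle markers only the skeletal actin gene Acta1 did, with 7.02 in GFPhigh, 6.92 in GFPlow, 4.32 in Dox minus and 7.32 in Dox plus. Acta1 was thus higher together with Ckb in the induction pair (at least 2.32) but not in the sorted pair (-0.10), and its part in the Ckb value was not tested. Genes known to vary among inbred mouse strains also differed widely within the induction pair. The MHC class I gene H2-Q2 read 3.79 in Dox minus and 13.01 in Dox plus. Pla2g2a read 3.10 and 7.11, and Ifi202b 10.72 and 5.32, on the same arrays. Whether strain background differed between these arrays, and its part in the Ckb difference, was not tested.

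Ckm, the cytosolic kinase of skeletal muscle and heart, read between 2.09 and 3.65 over its 2 probe sets (1417614_at and 1444643_at) and 4 arrays. All of these values were under the floor.

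Ckmt1, the ubiquitous mitochondrial creatine kinase, was well above the floor everywhere. Probe set 1417089_a_at read 15.60 in GFPhigh, 14.94 in GFPlow, 13.74 in Dox minus and 13.67 in Dox plus. Probe set 1432418_a_at read 15.36, 14.95, 12.73 and 12.75 in that order. Both were lower in GFPlow, by -0.66 and -0.41 (1.58-fold and 1.33-fold). Their Dox plus minus Dox minus differences were -0.07 and 0.02, which did not share a sign. Both GFP arrays were above both Dox arrays on each probe set of Ckmt1 and of Slc6a8. The order from highest to lowest for Ckmt1 was GFPhigh, GFPlow and then the Dox arrays, whose neighbours differed in opposite orders on the 2 probe sets. The pairs were of different genotype and sorting, so this order is a description only.

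Ckmt2, the sarcomeric mitochondrial kinase of striated muscle, lay opposite to Ckb in the sorted pair. Its 1 probe set (1428722_at) read 7.65 in GFPhigh, 5.31 in GFPlow, 4.54 in Dox minus and 3.89 in Dox plus. Both GFP arrays were above the floor, and the difference was -2.34 (5.06-fold lower in GFPlow). Both Dox arrays were under the floor. With a floor of 6 the difference was a bound of -1.65. The log2 summed signal of the striated muscle markers was 7.72 in GFPhigh and 7.65 in GFPlow. Of these markers only Acta1 reached the floor, so the sum holds Acta1 and values under the floor. It sets no level of muscle RNA.

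The creatine kinases therefore differed in unlike directions between proliferating and non-proliferating cells. The cytosolic Ckb was higher in GFPlow, and the mitochondrial Ckmt2 and, by less than 2-fold, Ckmt1 were lower. The median of the 3 measured kinases was -0.66, which is the Ckmt1 value. The kinase median over 2 measured genes of the induction pair, 1.98, lies between Ckb and Ckmt1 and describes neither.

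The steps around creatine synthesis were described from gene lists. Of 14 arginine and urea cycle genes 9 were measured in the sorted pair. Their median was 0.27, with 4 past 2-fold in favour of GFPlow and 0 against it. Cps1, which makes carbamoyl phosphate for the urea cycle, read 3.92 in GFPhigh and 7.89 in GFPlow, a difference of at least 2.89. Aldh18a1, which starts proline and ornithine synthesis from glutamate, differed by 1.68 on its highest probe set, and its 5 probe sets ranged from -0.01 to 3.34 without a floor. The arginine importer Slc7a1 differed by 1.54. Otc, which converts ornithine to citrulline, differed by 1.42 and, on its other measured probe set, by 1.97.

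The mitochondrial arginase Arg2, which competes with GATM for arginine, lay in the other direction, at -0.86 in the sorted pair and -1.09 in the induction pair on its highest probe set. Its other probe set gave -1.22 and -0.51, so which pair passed 2-fold depends on the probe set of Arg2. From that list 10 genes were measured in the induction pair, with a median of -0.30. On the highest probe set of each gene, 0 were at least 2-fold higher and 2 lower. Besides Arg2, the lower gene was Nags, the enzyme of the activator of CPS1, at -1.21. Other probe sets did pass 2-fold in favour of Dox plus. Slc7a1 differed by 0.72 on its highest probe set and by 1.69 on another. Aldh18a1 differed by 0.78 on its highest probe set, by 1.07 on another and by 0.45 to 0.61 on the rest. Cps1 read 5.27 in Dox minus and 3.89 in Dox plus, a bound of -0.27. Like Gatm, Cps1 was above the floor in GFPlow and under it in GFPhigh and Dox plus, but unlike Gatm it was above the floor in Dox minus.

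The next list holds genes around S-adenosylmethionine, the methyl donor of GAMT. Of 6 measured in the sorted pair, Cbs, which draws homocysteine off into cysteine synthesis, was past 2-fold at 1.39, and 0 were 2-fold lower. The list median was 0.06. Between the Dox arrays 0 of 7 passed 2-fold in either direction, with a median of 0.21 and Mtrr, which reactivates methionine synthase, furthest from 0 at 0.91. Ahcy, which removes the S-adenosylhomocysteine left by every such methylation, differed by 0.51 in the sorted pair and by 0.50 in the induction pair. The 2-fold counts of this list rest on the highest probe set of each gene. Another probe set of Ahcyl2 differed by -1.10 in the sorted pair, against -0.42 on its highest. Another of Ahcyl1 differed by 1.06 in the induction pair, against 0.09 on its highest.

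Among other carriers, Slc16a9, a monocarboxylate transporter relative reported for carnitine and creatine, read 5.16 in GFPhigh, 7.21 in GFPlow, 10.35 in Dox minus and 9.26 in Dox plus. Its differences were 2.05 and -1.09 on its highest probe set. Another probe set gave a bound of 0.90 in the sorted pair (2.34 without a floor) and -0.47 in the induction pair. The last probe set was under the floor on both GFP arrays and differed by -0.06 in the induction pair. With the floor, each 2-fold difference of Slc16a9 thus rests on 1 probe set. Slc16a12, a creatine transporter of kidney and eye in rodents, differed by 0.43 and -0.35. Of 18 other SLC6 family genes with a probe set, 7 were measured in the sorted pair, with a median of -0.05. Slc6a14, which imports neutral and cationic amino acids, was past 2-fold at -1.04, and 0 were 2-fold higher. In the induction pair 5 were measured, with a median of -0.05. Slc6a9, a glycine transporter, differed by 1.20, and the serotonin transporter Slc6a4 by at least 1.18. Slc6a14 differed by -1.34. Its other probe set gave -0.88 in the sorted pair and -0.98 in the induction pair, each within 2-fold. The median of this list in the induction pair was 0.49 with a loess correction, so its sign depends on the processing.

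Of the phosphotransfer enzymes beside creatine kinase, Ak3 and Ak4 were the only adenylate kinases measured, out of 6 with a probe set. Ak4, a mitochondrial adenylate kinase known as a hypoxia-inducible gene, read 7.05 in GFPhigh and 5.85 in GFPlow, a difference of -1.20, and differed by -0.16 in the induction pair. Its other probe set that reached the floor gave a bound of -1.77 in the sorted pair (-2.21 without a floor) and 0.24 in the induction pair. Ak3 differed by -0.46 and 0.14. All 5 measured nucleoside diphosphate kinases had differences above 0 in the sorted pair, with a median of 0.30 and 0 past 2-fold. Among them Nme4 was a bound of 0.15, and 2.00 without a floor. Nme1, the best known of them, differed by 0.30 on its highest probe set and by 1.61 on the other. In the induction pair these probe sets of Nme1 differed by 0.29 and 1.01. Nme6 passed 2-fold in the induction pair at 1.77, and the median of 4 genes was 0.53.

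The carriers and pores with which mitochondrial creatine kinase exchanges its substrates were mostly near 0. Of 6 measured in the sorted pair, 5 lay between -0.46 and -0.13, and the adenine nucleotide carrier Slc25a4 was 2.69 higher in GFPlow. Slc25a4 read 6.07 in GFPhigh, 8.76 in GFPlow, 10.15 in Dox minus and 10.95 in Dox plus. Its other probe sets that reached the floor differed by 2.44 and 3.64 in the sorted pair without a floor. Slc25a5, another adenine nucleotide carrier, differed by -0.13. In the induction pair the 6 ranged from -0.28 to 0.80, with a median of 0.04.

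Of 6 measured ATP-driven pumps, 2 passed 2-fold in favour of GFPhigh and 0 in favour of GFPlow. These were the colonic proton-potassium pump Atp12a (-1.23) and the plasma membrane calcium pump Atp2b1 (-1.05). The other probe sets of Atp2b1 gave -0.96 and -0.55, so its 2-fold difference rests on 1 probe set. The list median was -0.18 in the sorted pair. Between the Dox arrays it was 0.19, with 0 past 2-fold in either direction. The sodium pump subunit Atp1b1 differed by -0.33 and 0.17.

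**Figure D3:**
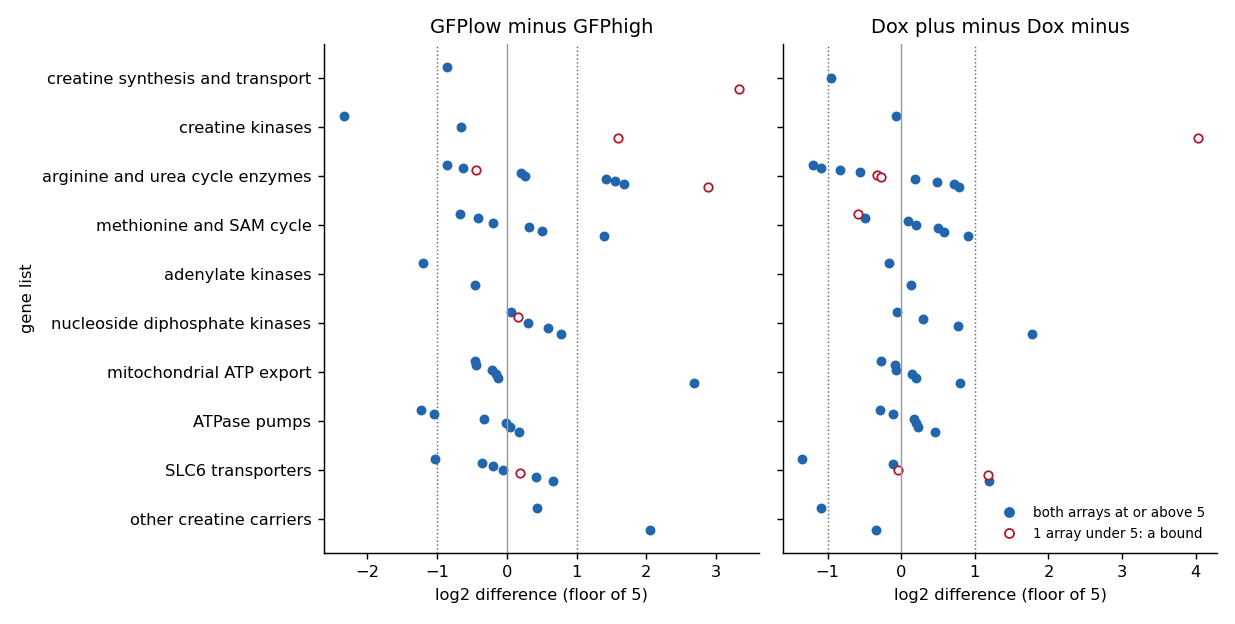
Log2 differences with the floor of 5 (horizontal axes) of the measured genes of 10 gene lists (vertical axis) in the sorted pair (left) and the induction pair (right); each point is 1 gene, open points are bounds, and dotted lines mark 2-fold. Gatm (3.33) and Ckb (4.03) are the rightmost points of their lists, and Slc25a4 (2.69) stands apart among the mitochondrial carriers.

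The arrays carried the labelled tissue. Colonocyte markers reached the floor for 9 of 10 genes on each GFP array and 10 of 10 on each Dox array, and goblet markers for 8 of 8 on all 4. Of 7 proliferation markers 6 reached the floor in GFPhigh and all 7 elsewhere, with a log2 summed signal of 11.04 in GFPhigh, 13.22 in GFPlow, 13.06 in Dox minus and 12.48 in Dox plus. Stem cell and Wnt target markers summed to 9.65, 11.32, 11.28 and 13.66 in the same order. Ckb, like the latter list, was higher in GFPlow than in GFPhigh and in Dox plus than in Dox minus. These differences of Ckb helped to choose the genes, so nothing is read from the shared direction, which was not tested. Leukocyte markers reached the floor for 2 to 6 of 9 genes and summed to 7.11 in GFPhigh, 7.62 in GFPlow, 9.45 in Dox minus and 8.56 in Dox plus. Tuft cell markers reached it for 1 to 4 of 6 genes, fibroblast markers for 1 to 2 of 8 and red blood cell markers for 0 of 2.

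Across settings the member values differed in how far they rest on the floor and on other choices. The differences of Slc6a8 and Ckmt1 in the sorted pair stayed between -0.89 and -0.53 in every setting that gave a value. Those of Ckb and Gatm moved with the floor, since their lower array lies under it, and kept their sign. Ckmt2 in the sorted pair was -2.34 as reported and -1.65 with a floor of 6. Slc6a8 in the induction pair, far above the floor, was -0.96 as reported. It was -1.01 with quantile normalization and with loess, and -0.49 as the mean of its probe sets.

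**Figure D4:**
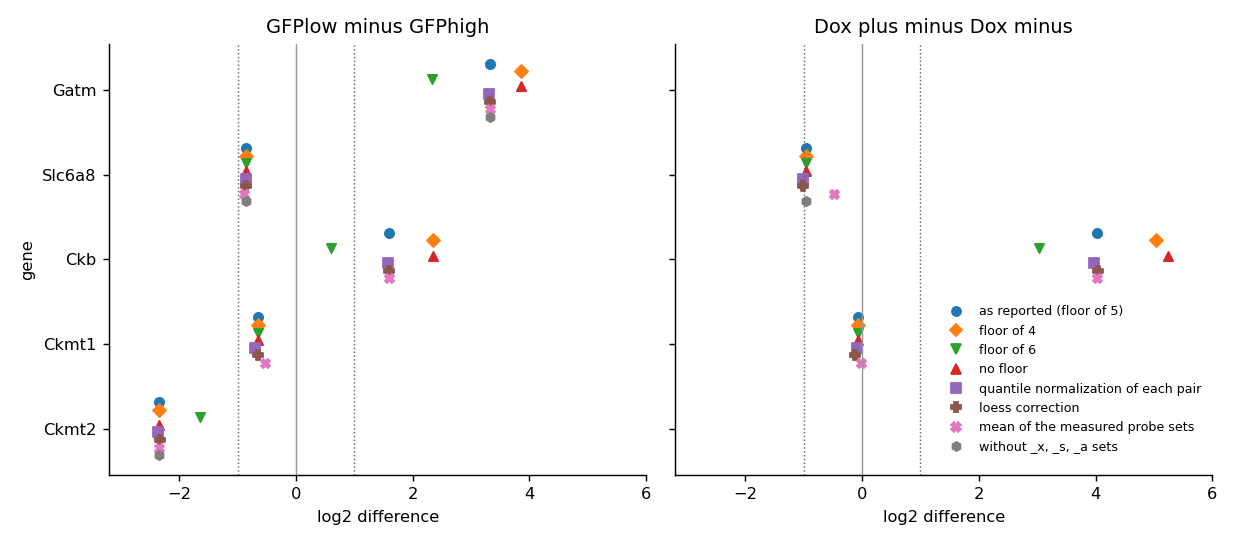
Log2 differences of the 5 members measured in at least 1 pair (vertical axis) in the sorted pair (left) and the induction pair (right), each symbol being 1 processing setting; dotted lines mark 2-fold. Ckb spreads from 0.59 to 2.34 on the left and from 3.03 to 5.25 on the right, while Ckmt1 stays inside 2-fold on both.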

How the data were processed

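Total RNA was extracted with Trizol and labelled as biotin-cRNA, per the labels' protocols. The authors deposited 1 log2 value per probe set and array, with GCRMA as the tool, per the submitters' processing notes; its version and which arrays were normalized together were not given in the sources used here, and the log2 scale was inferred from the range of the values (0.47 to 16.27). Signal over background, not read depth, limits these values, and the number of arrays limits their precision.

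Of 45101 probe sets, 34958 had 1 symbol in the platform annotation, 932 several and 9211 none; only the first kind was used. For each gene the probe set of highest mean stands, and every probe set of a member is reported. Values under 5 were set to 5, and differences of 1 or more (2-fold) were counted. With 1 array per group no test was run. Calculations used Python 3.11.15 with pandas 2.3.3, numpy 2.4.6 and statsmodels 0.14.6, and were tested on simulated data. The simulation put changes only into genes well above the floor, so it did not check differences with an array under it. The members, the 10 pathway lists, the 16 marker lists and the naming rule were chosen with earlier results of these data known. From each list, genes past 2-fold were named, or otherwise those furthest from 0; other named genes, Ahcy, Atp1b1, Ak3, Slc25a5, Slc16a12, H2-Q2 and Ifi202b among them, and the motifs were chosen after values or sequences had been seen. Distances between genes were also taken with the floor, an alternative chosen after seeing the data. Otherwise the alternatives were floors of 4 and 6, no floor, quantile normalization, loess (span 0.4), the mean of probe sets, omission of sets with the suffix _x_at, _s_at or _a_at, and a 3-fold threshold.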

Additional observations from a re-analysis of the deposited data

How the results depend on the processing

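No paired analysis was possible because each group is 1 array and no replicate was available to pair. Values are called moved here when they changed by over 1.5 times or crossed 2-fold. With a floor of 6, Gatm differed by 2.33 and Ckmt2 by -1.65 in the sorted pair, Ckb by 0.59 in the sorted pair and 3.03 in the induction pair, and 1 member instead of 2 was 2-fold higher in GFPlow. With a floor of 4 Ckb differed by 2.34 and 5.03, and without a floor by 2.34 and 5.25. Slc6a8 in the induction pair was -1.01 with quantile normalization and -1.01 with loess, which made 1 member 2-fold lower in each instead of 0. Ckb and Ckmt1 have only probe sets ending in _a_at. Without such sets they gave no value, which left 1 member higher in GFPlow and 0 in Dox plus. At 3-fold, 348 genes were higher and 93 lower in GFPlow, 199 higher and 205 lower in Dox plus, and 30 higher in both pairs. The creatine kinase median in the induction pair became -0.070 with a floor of 4, because Ckmt2 then entered the list at -0.54. Over these values, 104 alternatives stayed within the limits and 20 moved; among 130 list medians under the alternatives 123 stayed and 7 moved, 1 of these from past 2-fold to the other sign. Counting medians within 2-fold too, 10 of the 130 had the other sign, in 6 list medians, whereas 0 of 52 member differences did. With the floor of 5, chosen after seeing the data, 2 genes instead of 0 lay within a distance of 1 of Ckb. The cause of shifts other than those from the floor or fewer probe sets was not tested.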
